A study of Sus scrofa with 74 samples.

Results

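AMP-activated protein kinase (AMPK) was followed through the transcripts of its subunits in pig muscle. The 8 genes are the alpha subunits PRKAA1 and PRKAA2, the beta subunits PRKAB1 and PRKAB2, the gamma subunits PRKAG1, PRKAG2 and PRKAG3, and STK11, which encodes the upstream kinase LKB1. They were chosen by name, and every probe set annotated to a single 1 of these genes was taken, which gave 12 of the 23999 probe sets that are not array controls. Of these, 8 probe sets of 7 genes were bright enough to be kept for testing, which set each against 11451 or 11452 other probe sets. Both probe sets of PRKAA1 and 2 of the 3 probe sets of STK11 were too dim to be kept.

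AMPK is a heterotrimer of a catalytic alpha, a scaffolding beta and a regulatory gamma subunit. It is activated when AMP rises relative to ATP and when LKB1 phosphorylates the alpha subunit, and it favours glucose uptake, fatty acid oxidation and mitochondrial biogenesis over energy-consuming synthesis. The beta subunits carry a glycogen-binding module, and PRKAG3 encodes a gamma isoform found mainly in glycolytic skeletal muscle, where a coding variant known from Hampshire pigs raises muscle glycogen and affects meat quality.

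The samples were M. longissimus dorsi, the long back muscle, of 74 F2 pigs of a Duroc by Pietrain cross, taken at slaughter at a mean end weight of 110 kg, and each animal was read on its own Affymetrix array of pig transcripts. They formed a single group of untreated pigs, free by the study's methods of the ryanodine receptor mutation of malignant hyperthermia, and no sample served as a control. They came from full-sib families, but family, sex, carcass weight and slaughter date are not among the labels, so all p values treat related animals as independent. The labels number the animals 1 to 33 (24 animals, called low-numbered here) and 60 to 114 (50 animals, called high-numbered), and the meaning of this gap is not stated.

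The arrays differed in brightness before scaling. The trimmed mean intensity ran from 50.3 to 122.9 over the low-numbered animals (87.1 ± 14.9, SD, n = 24) and from 84.7 to 183.2 over the high-numbered animals (130.4 ± 20.2, SD, n = 50). Each array was therefore scaled to a trimmed mean of 500 and taken to log2. The mean correlation of an array with the other arrays ran from 0.845 to 0.932, and the arrays of animals 23 (0.845) and 26 (0.856) stood apart from the next lowest (0.872). Of the 10 muscle fibre markers looked for, 7 were kept, and their summed level lay between 17.51 and 18.78 on the log2 scale. The leukocyte markers kept (4 of 9) summed to between 11.06 and 12.91, the adipocyte markers (4 of 8) to between 10.23 and 14.72 and the fibroblast markers (5 of 7) to between 13.44 and 14.87. No kept marker was at 0 on any array. In whole muscle, fewer cells of a type and less RNA per cell cannot be told apart.

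Transcripts of 7 of the 8 genes passed the filter on brightness, and each was read in all 74 animals. PRKAA2, the alpha isoform that predominates in skeletal muscle, had log2 values of 10.23 at the lowest (animal 26), 11.89 at the median and 12.76 at the highest (animal 91). PRKAB1 ran from 7.61 over a median of 8.53 to 9.35, and PRKAB2, the beta isoform abundant in muscle, from 9.55 over 10.88 to 11.71. These ranges belong to separate probe sets and are not set against each other, because the brightness of a probe set also depends on its oligonucleotides.

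Among the gamma subunits, PRKAG1, the widely expressed isoform, was read by both of its probe sets. Ssc.4201.1.A1_at gave log2 values of 9.79, 10.34 and 10.91 at the lowest, the median and the highest, and Ssc.26338.1.S1_at gave 8.39, 9.07 and 10.00. After removal of the block means they correlated over the animals at r = 0.78, with 0.626 over the low-numbered and 0.818 over the high-numbered animals, so the pair of probe sets ordered the animals alike. PRKAG2, the isoform also prominent in heart, ran from 6.94 (animal 11) over 9.19 to 10.88 (animal 91). PRKAG3 ran from 6.69 (animal 18) over 8.16 to 9.44 (animal 112). STK11, by its kept probe set, stayed between 9.63 and 10.85 with a median of 10.31.

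The dim probe sets of a gene agreed weakly on the order of the animals. The medians of PRKAA1, the widely expressed alpha isoform, were 6.76 and 6.09 on the log2 scale, and its probe sets correlated with each other at r = -0.0406. Those of the dim STK11 probe sets were 5.64 and 5.57, and they correlated with the kept STK11 probe set at r = 0.171 (0.401 over the low-numbered and 0.0524 over the high-numbered animals) and 0.0835, and with each other at 0.262 (0.238 and 0.274). With all 23999 probe sets tested, none of the 16 relations of PRKAA1 and none of the 14 relations of dim STK11 probe sets with the kept members passed an adjusted p of 0.05, with r between -0.272 and 0.19.

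**Figure D1:**
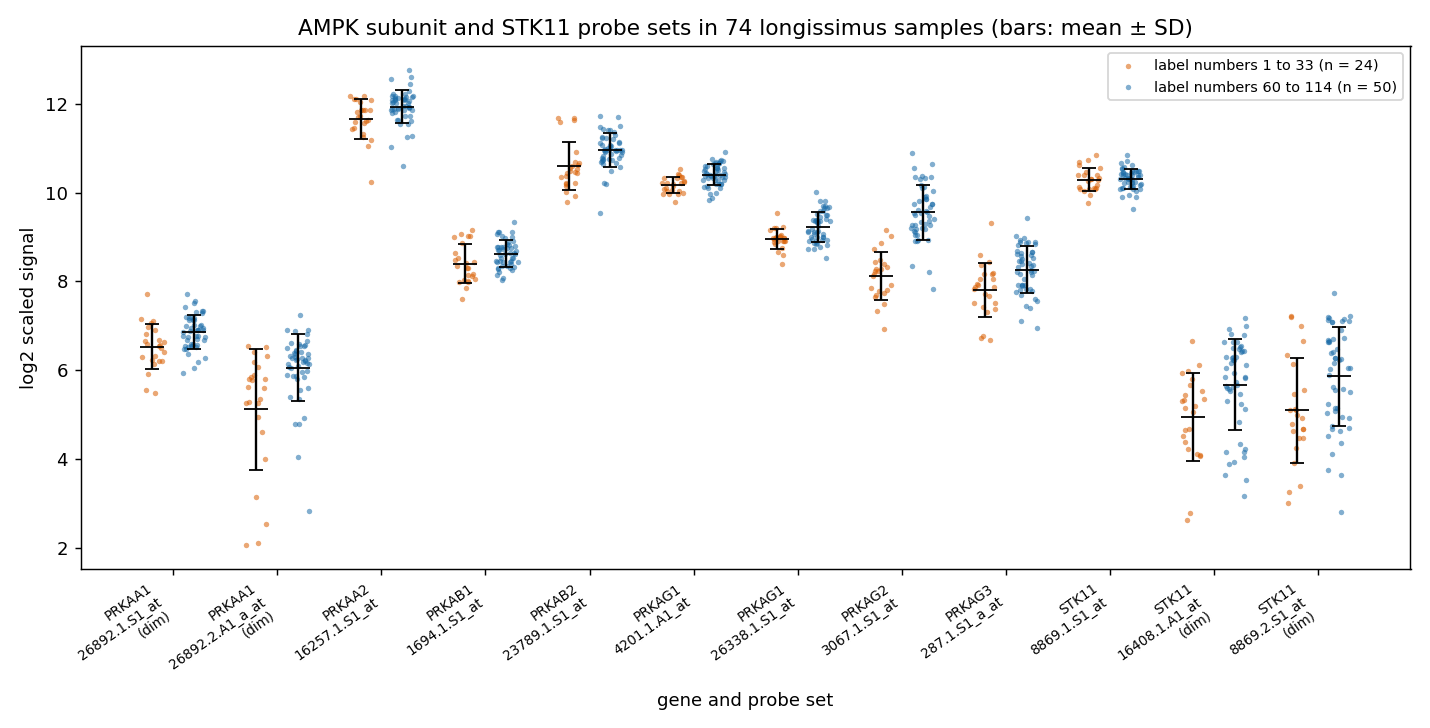
Transcript level (log2 of the scaled intensity, vertical axis) of the 12 AMPK probe sets in each animal, with low-numbered and high-numbered animals side by side, and the mean ± SD of each block. PRKAG2 shows the widest separation, with means of 8.12 and 9.55, while STK11 (Ssc.8869.1.S1_at) has means of 10.29 and 10.31.

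The members differed in how much they varied among animals. PRKAG2 and PRKAG3 were the most variable of the kept members, with SDs within the label blocks of 0.590 and 0.555 on the log2 scale, larger than those of 87.2% and 83.8% of all kept probe sets. Between the 10th and the 90th percentile of the animals their levels changed 2.67-fold and 2.49-fold. PRKAB2 (SD 0.439), PRKAA2 (0.397) and PRKAB1 (0.346) lay around the median SD of all kept probe sets, which was 0.383. STK11 (0.241) and PRKAG1 (0.222 by Ssc.4201.1.A1_at and 0.306 by Ssc.26338.1.S1_at) varied least, and the first of these PRKAG1 values exceeded those of only 6.58% of kept probe sets.

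Low-numbered and high-numbered animals differed for 6 of the 7 kept genes, all lower in the low-numbered animals. The largest difference was that of PRKAG2, which was 8.12 ± 0.53 (SD, n = 24) in the low-numbered and 9.55 ± 0.62 (SD, n = 50) in the high-numbered animals. Its log2 difference was -1.43 (SE 0.144, limma, adjusted p = 3.7e-14), and 24 of the 24 low-numbered animals lay below the median of the high-numbered ones, although the ranges of the blocks overlapped. For PRKAG3 (7.81 ± 0.61 against 8.27 ± 0.53) the difference was -0.46 (SE 0.135, limma, adjusted p = 0.0027), for PRKAB2 -0.37 (SE 0.108, adjusted p = 0.0023), for PRKAA2 -0.28 (SE 0.0978, adjusted p = 0.0098) and for PRKAB1 -0.23 (SE 0.086, adjusted p = 0.019). The PRKAG1 probe sets gave -0.23 (SE 0.0573, adjusted p = 0.00046) and -0.28 (SE 0.0765, adjusted p = 0.0013), and STK11 gave -0.02 (SE 0.0616, adjusted p = 0.84). In a fit without the filter, where 10700 of 23999 probe sets were called, the dim probe sets were also lower, with -0.33 and -0.93 for PRKAA1 (adjusted p = 0.0078 and 0.00098) and -0.73 and -0.77 for STK11 (adjusted p = 0.013 and 0.02).

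This contrast was broad and not particular to AMPK. Of all kept probe sets 36.1% were lower and 25.4% higher in the low-numbered animals (61.5% in either direction), and their median difference was -0.06. After quantile normalization PRKAB1 (-0.0986) and PRKAG3 (-0.275) no longer passed the test, and in the values as deposited STK11 was also called lower (-0.602). The blocks and array brightness move together, and their part in these differences was not tested. All relations that follow were therefore computed within blocks, as Pearson's r after removal of each block mean, and were given again for each block.

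The question of whether the subunits of 1 complex vary together was asked for 27 pairs of kept probe sets from different genes. The correlations were small, from -0.31 to 0.307 with a median of 0.0697, and 21 of the 27 were positive. Only 2 pairs passed an adjusted p of 0.05 in at least 1 fit over all kept probe sets, and both included PRKAA2.

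PRKAA2, the muscle alpha isoform, and PRKAG3, the gamma isoform of glycolytic muscle, correlated positively (r = 0.307, permutation p = 0.0096, rho = 0.291, permutation p = 0.013). Over the low-numbered animals r was 0.411 and over the high-numbered animals 0.24. The adjusted p was 0.032 with PRKAA2 as the predictor and 0.055 with PRKAG3 as the predictor. PRKAA2 and PRKAB1 correlated negatively (r = -0.31, permutation p = 0.009, rho = -0.234, permutation p = 0.046), with r = -0.489 and -0.167 over the low-numbered and high-numbered animals and adjusted p values of 0.033 and 0.026. Animals 26 and 111, with the PRKAA2 values farthest from the median (10.23 and 10.61), carried part of both relations, since r was 0.228 and -0.194 without them and neither was then called. Neither pair was called in either block alone, by ranks, with all probe sets tested, or without the arrays of animals 23 and 26. The pair with PRKAB1 was also not called after quantile normalization. Of 13 alternatives, the pair with PRKAG3 held in 6 and that with PRKAB1 in 4.

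**Figure D2:**
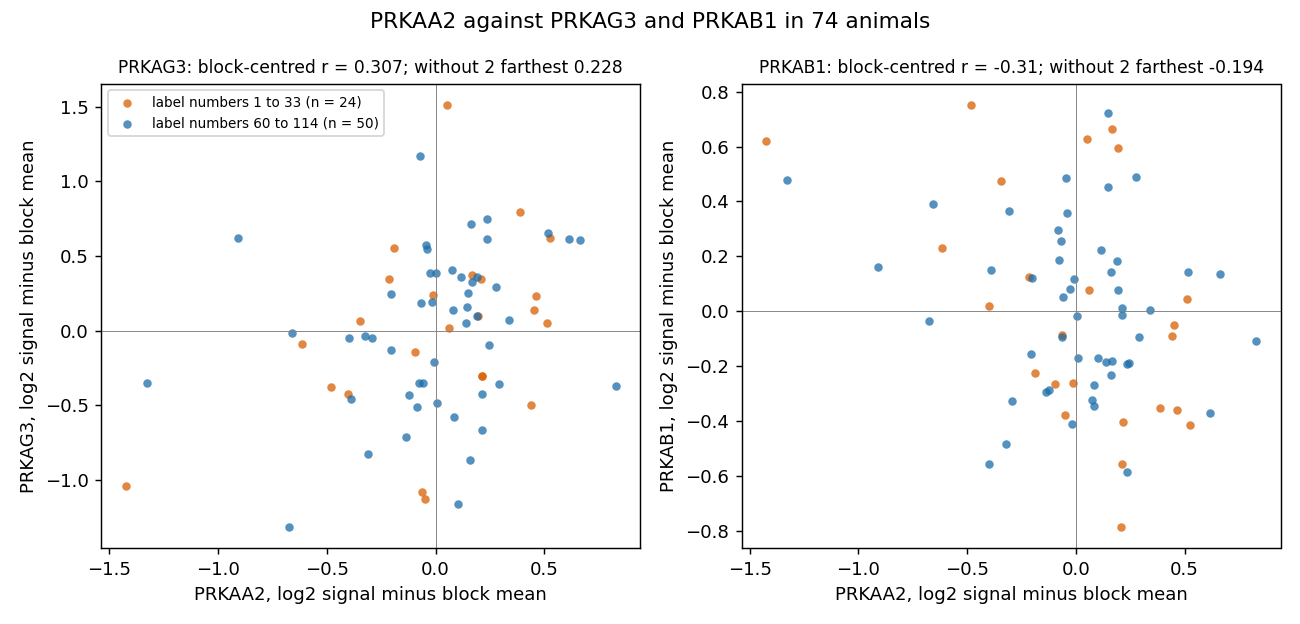
PRKAA2 (horizontal axis) against PRKAG3 and PRKAB1 (vertical axes) in the 74 animals, as log2 differences from the mean of the animal's label block, with low-numbered and high-numbered animals marked. The relation with PRKAG3 rises (r = 0.307) and that with PRKAB1 falls (r = -0.31), and animals 26 and 111 lie at the far left.

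The remaining pairs were not called and had r between -0.192 and 0.238. The catalytic PRKAA2 and the scaffold PRKAB2 gave r = 0.175, and PRKAB2 and PRKAG3 gave r = -0.0676. The gamma subunits PRKAG2 and PRKAG3, alternatives at 1 position of the complex, gave r = -0.127. PRKAG3 and STK11 had the highest value among them (r = 0.238, permutation p = 0.044, rho = 0.145, permutation p = 0.22) and adjusted p values of 0.16 and 0.25.

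Each kept member was then related to all other kept probe sets. The share of probe sets called at an adjusted p under 0.05 was 34.8% for PRKAB1, 25.7% for PRKAA2, 24.2% and 17.7% for the PRKAG1 probe sets, 20.8% for PRKAB2 and 13.3% for PRKAG3, but only 0.812% for PRKAG2 and 0.725% for STK11. Such broad relations are the background against which the gene lists have to be read. The lists covered glycogen metabolism (13 genes tested), glycolysis (15), oxidative phosphorylation (59), the citric acid cycle (16), fatty acid oxidation (17), fast fibres (8), slow fibres (9), mitochondrial biogenesis (4) and the AMPK upstream partners (5), AMPK-related kinases (5) and AMPK targets (10). The median r over all kept probe sets lay between -0.0176 and 0.0363 in the 8 fits. An interaction term in limma asked whether the slope on a member differed between low-numbered and high-numbered animals. It did for 2.98% of kept probe sets with PRKAA2, for 0.00873% each with PRKAB1 and with PRKAG1 (Ssc.4201.1.A1_at), for 0.0262% with PRKAG1 (Ssc.26338.1.S1_at) and for 0.0175% with PRKAG3.

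**Figure D3:**
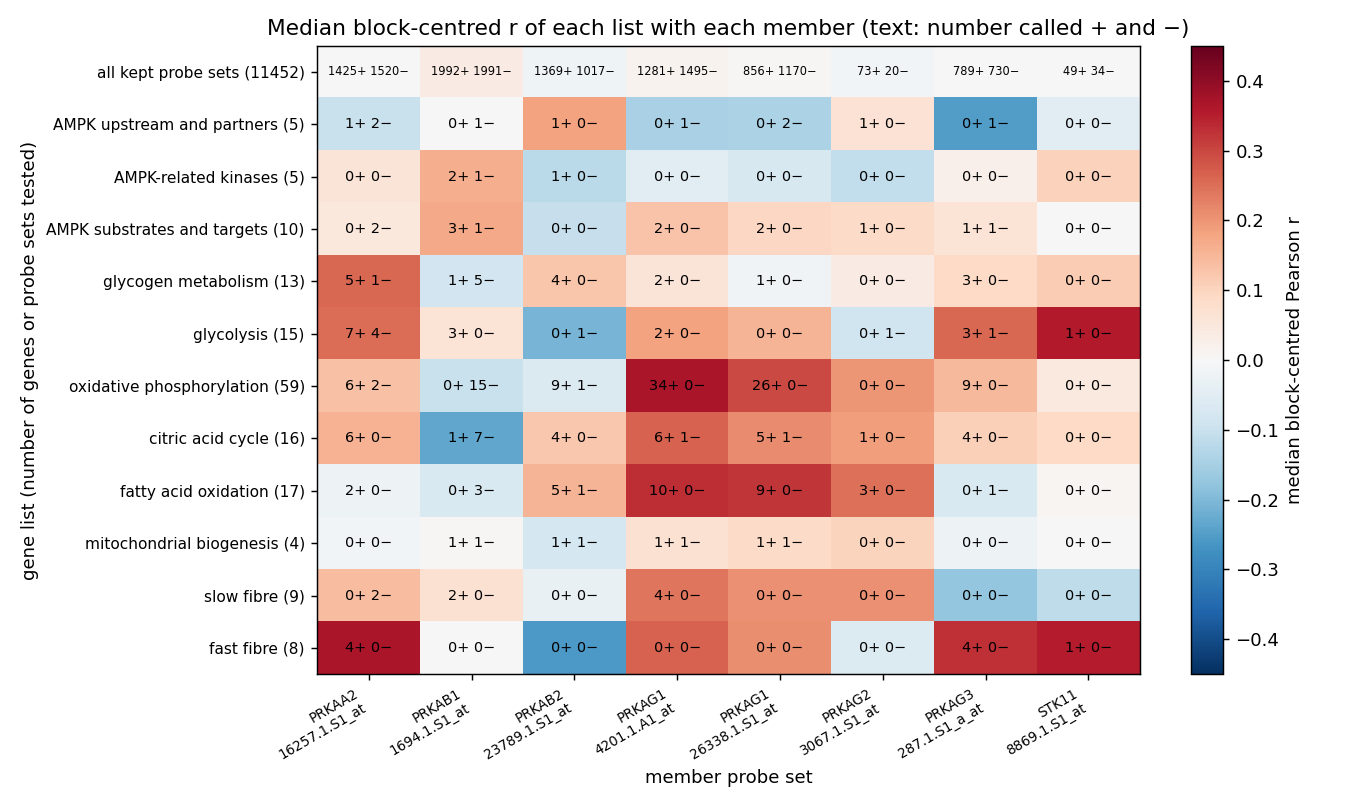
Median block-centred r of each gene list (rows) with each kept AMPK probe set (columns), on a colour scale, with the number of genes called positive and negative written in the cells. Oxidative phosphorylation stands out for PRKAG1 (median r 0.369 and 0.297), and fast fibre genes for PRKAA2 (0.368), STK11 (0.352) and PRKAG3 (0.327).

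PRKAA2 varied with genes of glycogen metabolism, glycolysis and fast fibres. Of all kept probe sets 12.4% were called positive and 13.3% negative with PRKAA2. Of the 13 glycogen genes 5 were called positive and 1 negative (median r 0.258), of the 15 glycolytic genes 7 and 4 (0.252), of the 8 fast fibre genes 4 and 0 (0.368) and of the 16 citric acid cycle genes 6 and 0 (0.157). Of the 59 oxidative phosphorylation genes 6 and 2 were called (0.133).

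The glycogen genes called with PRKAA2 were STBD1, a starch-binding protein that anchors glycogen (r = 0.618), PHKB, a phosphorylase kinase subunit (0.577), PGM1, the phosphoglucomutase (0.443), GYG1, the glycogen primer glycogenin (0.374), and PYGM, the muscle glycogen phosphorylase (0.344). The other PYGM probe sets called gave r = 0.668, 0.662 and 0.316, so probe sets of this gene differed in the size of the relation. PYGL, the liver form of the phosphorylase, related negatively (-0.559). Among glycolytic genes the muscle phosphofructokinase PFKM (0.586), the muscle lactate dehydrogenase LDHA (0.5) and TPI1, the triosephosphate isomerase (0.617), were called positive. The liver phosphofructokinase PFKL (-0.429), the heart lactate dehydrogenase LDHB (-0.581) and HK1, the widely expressed hexokinase (-0.671), were called negative. These list genes and those named with the other members apart from PRKAG3 were chosen after their values were seen.

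Among fast fibre genes the calls with PRKAA2 were MYOZ1, a Z-disc protein (0.468), ATP2A1, the fast calcium pump (0.466), MYH2, the fast IIA myosin (0.459), and TNNI2, fast troponin I (0.444). Of the 5 upstream partners, STRADB, the pseudokinase that binds and activates LKB1, was called positive, and CIDEA, a lipid droplet protein (-0.289), and MAP3K7, a stress kinase (-0.295), negative. Of the 10 targets, 2 were called, both negative. They were TBC1D1, the regulator of GLUT4 transport (-0.404), and CPT1B, the muscle carnitine palmitoyltransferase (-0.305). Without the 2 animals farthest on PRKAA2, r was -0.185 for TBC1D1 and -0.0821 for CPT1B. Their rho over all animals was -0.191 (permutation p = 0.11) and -0.212 (permutation p = 0.072). With both PRKAG1 probe sets CPT1B was called positive (r = 0.447 and 0.4).

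The gene closest to PRKAA2 over the 74 animals was VLDLR, a receptor for triglyceride-rich lipoproteins (r = 0.778, rho = 0.634, 0.818 and 0.751 in the low-numbered and high-numbered animals, adjusted p = 1.2e-10). STRADB came next (r = 0.729, rho = 0.501, 0.85 and 0.635, adjusted p = 9.8e-10), and its other probe sets gave 0.702 and 0.691. In animal 26, of the lowest PRKAA2, STRADB was 11.66 on the log2 scale, and in animal 111 it was 11.94, against a median of 13.34. In animal 91, of the highest PRKAA2, it was 13.66. Without animals 26 and 111 the correlation of STRADB was 0.543 and that of VLDLR 0.708, and both were called in every alternative tried. The others of the closest 5 were BPGM, the bisphosphoglycerate mutase (0.711), CAMK2G, a calcium-dependent kinase (0.704), and ALKBH5, an RNA demethylase (0.69). The genes farthest from PRKAA2 were FOLR1, a folate receptor (-0.702), PTGDS, a prostaglandin synthase (-0.697), ANXA5, an annexin (-0.674), SNX22 (-0.672) and HEXA, a lysosomal enzyme (-0.672).

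Markers of other cells moved with PRKAA2. It correlated with the summed leukocyte markers at r = -0.642 (-0.715 and -0.588 in the low-numbered and high-numbered animals), and 3 of the 4 leukocyte markers were called negative, CD163 (-0.551), CD74 (-0.473) and AIF1 (-0.472). With the summed fibroblast markers r was -0.444 and with the muscle fibre markers 0.318. The part of these cells in the relations of PRKAA2 was not tested. Without animals 26 and 111, 1704 probe sets were called in place of 2945, with 3 glycogen and 0 fast fibre genes positive, and by ranks 1311 probe sets, with 1 glycogen and 1 fast fibre gene.

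PRKAB1, the widely expressed beta subunit, had the broadest relations, with 1992 probe sets called positive and 1991 negative (17.4% each). Oxidative phosphorylation genes were called in 1 direction, 0 positive and 15 negative of 59 (median r -0.101), a negative share above that of all kept probe sets. Citric acid cycle genes were called 1 positive and 7 negative of 16 (-0.235), and fatty acid oxidation genes 0 and 3 of 17 (-0.07). Of the 13 glycogen genes 1 was called positive and 5 negative (-0.0848).

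The glycogen genes called negative with PRKAB1 were PPP1CC and PPP1CB, catalytic subunits of the phosphatase that activates glycogen synthase (r = -0.57 and -0.35), PHKB (-0.543), STBD1 (-0.425) and UGP2, which makes UDP-glucose (-0.32), while PYGL was positive (0.437). PHKB, STBD1 and PYGL thus had with PRKAB1 the opposite sign to that with PRKAA2. Among kinases related to AMPK, SIK3 (0.423) and SIK2 (0.368) were positive and MARK3 negative (-0.415), all substrates of LKB1. Of the 10 AMPK targets 3 were called positive and 1 negative (median r 0.172), a share not far from the 34.8% of all kept probe sets called with PRKAB1. FOXO3, a transcription factor (0.393), TBC1D1 (0.365) and TSC2, an inhibitor of growth signalling (0.317), were positive, and PDK4, which restrains pyruvate oxidation, was negative (-0.35).

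Closest to PRKAB1 were LRRC59 (r = 0.618, rho = 0.602, adjusted p = 2.6e-06), PLOD3, a collagen-modifying lysyl hydroxylase (0.605), CANT1 (0.593), MAPK1IP1L (0.589) and ASXL1 (0.58). The largest negative values were those of LRRFIP1 (-0.649, rho = -0.647, adjusted p = 1.6e-06), PDCD5 (-0.64), PAIP1, a partner of the poly(A)-binding protein (-0.637), LSM14A (-0.631) and MAPK6, an atypical MAP kinase (-0.616). PRKAB1 correlated with the summed leukocyte markers at r = 0.482 and with the smooth muscle markers (4 of 5 kept, summed level 12.88 to 14.88) at 0.351. Of the erythroid markers (2 of 6 kept, summed level 8.11 to 12.84) HBB was called negative (-0.539). The other, ALAS2, had r above 0 and was not called, and the summed erythroid markers gave r = -0.226. The part of these cells was not tested. Without array scaling 6105 probe sets were called, 0 oxidative phosphorylation genes were negative, and 9 of the 23 relations named with PRKAB1 changed sign. After quantile normalization 8 of the 59 oxidative phosphorylation genes were called negative. The share of all kept probe sets called negative there is not given, so a share above it is shown for the main fit alone.

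PRKAB2, the beta subunit abundant in muscle, was called positive with 12% and negative with 8.88% of kept probe sets. Of the 13 glycogen genes 4 were called positive and 0 negative (median r 0.124). They were PPP1CC (r = 0.441), PPP1CB (0.352), PHKB (0.349) and STBD1 (0.345), and each of these 4 was called negative with PRKAB1. In the values as deposited PPP1CC, PPP1CB and STBD1 had r above 0 with PRKAB1. The difference between the relations of PRKAB1 and PRKAB2 was not tested. Fatty acid oxidation genes were called 5 positive and 1 negative of 17 (0.152), citric acid cycle genes 4 and 0 of 16 (0.122), and oxidative phosphorylation genes 9 and 1 of 59 (-0.0638). None of the 8 fast fibre genes was called by limma, 5 had an unadjusted p under 0.05, and r was below 0 for all 8 (median -0.26). The relation between the beta subunits themselves was not called.

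The closest genes to PRKAB2 were TSPAN3, a tetraspanin (r = 0.565, rho = 0.568, adjusted p = 0.00064), DPH3 (0.564), SERBP1, an mRNA-binding protein (0.554), MARK3, the LKB1-dependent kinase (0.547), and ANAPC13, a subunit of the anaphase-promoting complex (0.545). The farthest were AP2M1, a clathrin adaptor subunit (-0.563), HGH1 (-0.55), FAM43A (-0.548), ATP6V0C, a proton pump subunit (-0.547), and WDR18 (-0.525). MARK3 thus related positively to PRKAB2 and negatively to PRKAB1, the latter with a change of sign in the values as deposited. PRKAB2 itself correlated with array brightness before scaling at r = 0.27 and with the summed smooth muscle markers at -0.316. With array brightness as a further covariate 481 probe sets were called in place of 2386, and 11 of the 14 named relations were still called.

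PRKAG1 was the member with the most calls among genes of oxidative phosphorylation and fatty acid oxidation. In the fit of Ssc.4201.1.A1_at 11.2% of kept probe sets were called positive and 13.1% negative, whereas 34 of the 59 oxidative phosphorylation genes were called positive and 0 negative (median r 0.369, 51 of 59 above 0). Fatty acid oxidation genes were called 10 and 0 of 17 (0.331), citric acid cycle genes 6 and 1 of 16 (0.267) and slow fibre genes 4 and 0 of 9 (0.242). The fit of Ssc.26338.1.S1_at, in which 7.48% were called positive and 10.2% negative, gave 26 and 0 oxidative phosphorylation genes (0.297), 9 and 0 fatty acid oxidation genes (0.322) and 5 and 1 citric acid cycle genes (0.212). It called no slow fibre gene (median r 0.205, 4 of 9 at an unadjusted p under 0.05 in limma), so the slow fibre calls rested on 1 of the PRKAG1 probe sets. Fast fibre genes had median r of similar size, 0.267 and 0.208 in the fits of Ssc.4201.1.A1_at and Ssc.26338.1.S1_at, with all 8 above 0 in each. Neither fit called any of them by limma, and 5 and 1 of the 8 had an unadjusted p under 0.05.

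The gene closest to PRKAG1 was NDUFS3, a core subunit of respiratory complex I (r = 0.634, rho = 0.553, 0.532 and 0.68 in the low-numbered and high-numbered animals, adjusted p = 9.3e-06). The other NDUFS3 probe sets did not give 1 direction, since r was 0.458 (called) for 1 of them and -0.271 (not called, adjusted p = 0.063) for the other. In animal 114, which had a PRKAG1 level of 9.83, NDUFS3 was 11.76, its lowest level, and in animal 23, with 10.54 for PRKAG1, it was 13.98, its highest. The array of animal 23 is 1 of those that stand apart and was the dimmest before scaling (50.3). SLC25A11, the mitochondrial oxoglutarate carrier (0.631), LIN37 (0.63), FAM219A (0.6) and ACADVL, the first dehydrogenase of long-chain fatty acid oxidation (0.589), followed. Further subunits were spread over the respiratory chain and the ATP synthase, with NDUFA10 of complex I (0.572), SDHA of complex II (0.551), and ATP5G1 and ATP5B of the ATP synthase (0.543 and 0.537). In fatty acid oxidation ETFB, an electron carrier (0.524), HADH (0.503), FABP3, the muscle fatty acid binding protein (0.473), and ACADS (0.472) were called. HADH gave r = -0.0505 over the low-numbered and 0.629 over the high-numbered animals. HADHB, also called (0.308), likewise gave -0.0305 over the low-numbered and 0.464 over the high-numbered animals.

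The genes farthest from PRKAG1 were CD164 (-0.566), TOP2B, a topoisomerase (-0.556), RAD21, a cohesin subunit (-0.548), TBCA, a tubulin chaperone (-0.544), and RYBP, a Polycomb protein (-0.537). By Ssc.26338.1.S1_at the closest were ATP6V0D1, a proton pump subunit (0.591), DNTTIP1 (0.573), MTFR1L (0.54), VRK3 (0.536) and PITRM1, a mitochondrial peptidase (0.535). The farthest were CAPRIN1 (-0.549), TMED5 (-0.537), KMT2E (-0.529), SUGT1 (-0.51) and INSIG2 (-0.503). As for NDUFS3, the probe sets of SDHB of complex II disagreed. With Ssc.4201.1.A1_at, r was 0.431 by its brightest probe set and -0.314 by another, and both were called. With Ssc.26338.1.S1_at they gave 0.3 (not called, limma, adjusted p = 0.057) and -0.387 (called, adjusted p = 0.011). The list counts take only the brightest probe set of a gene. The mitochondrial biogenesis list was split, with 1 positive and 1 negative call of 4 genes in each PRKAG1 fit. TFB1M was positive (0.487 with Ssc.4201.1.A1_at and 0.397 with Ssc.26338.1.S1_at) and TFAM negative (-0.407 and -0.404).

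PRKAG1 correlated with array brightness before scaling (r = -0.357 and -0.248 for the probe sets in the same order) and with the summed smooth muscle markers (0.35 and 0.258). It also correlated with the erythroid markers (-0.346 and -0.286) and the nerve markers (2 of 6 kept, summed level 8.68 to 10.53, -0.292 and -0.209). With Ssc.4201.1.A1_at, HBB (-0.346), S100B (-0.332) and the fibroblast marker LUM (-0.287) were called negative and 2 of 4 smooth muscle markers positive. None of these was called with Ssc.26338.1.S1_at. The muscle fibre marker DES (0.41 and 0.384) and the endothelial marker CDH5 (0.311 and 0.309) were called positive with both probe sets. Summed muscle fibre markers gave r = 0.286 and 0.206, and summed endothelial markers 0.245 and 0.232. The part of these cells was not tested. With array brightness as a covariate 17 oxidative phosphorylation genes were called with Ssc.4201.1.A1_at, 19 with the 3' to 5' ratio of control probe sets added, and all 18 named relations were called in both. Over the 24 low-numbered animals alone limma called no probe set with Ssc.4201.1.A1_at (2006 at an unadjusted p under 0.05), and over the 50 high-numbered animals alone all 18 named relations passed.

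PRKAG2 had few relations, 73 probe sets positive (0.637%) and 20 negative (0.175%). The largest was that of PPARGC1A, the PGC-1alpha coactivator and 1 of the 10 AMPK targets, which correlated with PRKAG2 at r = 0.658 (rho = 0.635, permutation p = 1e-05 for both, the smallest the permutations can give, adjusted p = 4.4e-07). The value was 0.615 over the low-numbered and 0.687 over the high-numbered animals. PPARGC1A itself ranged widely, from 7.79 over a median of 11.21 to 13.21 on the log2 scale. Its lowest level was in animal 114, which also had the lowest PRKAG2 of the high-numbered animals (7.84). Animal 11, of the lowest PRKAG2 of all (6.94), had 8.25, and animal 91, of the highest PRKAG2 (10.88), had 12.34. Without animals 114 and 101, the farthest from the median, r was 0.587, and the relation was called in every alternative except the 24 low-numbered animals alone (adjusted p = 0.151).

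The other genes closest to PRKAG2 were HADHB, a subunit of the mitochondrial trifunctional protein of fatty acid oxidation (r = 0.543, rho = 0.463, adjusted p = 0.0015), ACTN2, a Z-disc actinin (0.518), CIPC, an inhibitor of the circadian clock (0.502), and RABGAP1 (0.489). The other HADHB probe sets gave 0.52 and 0.51. ETFDH, the electron transfer flavoprotein dehydrogenase (0.436), and FABP3 (0.401) were also called, which made 3 positive and 0 negative of 17 fatty acid oxidation genes (median r 0.249, 16 of 17 above 0). No oxidative phosphorylation gene was called by limma, while 17 had an unadjusted p under 0.05 and 56 of 59 had r above 0 (median 0.199). Of the 4 genes of the mitochondrial biogenesis list 0 were called by limma and 1 had an unadjusted p under 0.05. PPP2CA, the catalytic subunit of the phosphatase that can dephosphorylate AMPK, was positive (0.413).

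The genes farthest from PRKAG2 were EPB41, a membrane skeleton protein (-0.469), TAOK3 (-0.463), IGFBP5, which binds insulin-like growth factors (-0.442), NPG4, a protegrin of a family of near-identical pig genes whose probe sets may be shared (-0.431), and CTNNBL1 (-0.426). PRKAG2 correlated with the summed adipocyte markers at r = -0.352 and with the erythroid markers at -0.303, and their part was not tested. The count of 93 probe sets was unstable. It was 7 without animals 114 and 101, 4 by ranks and 6 over the high-numbered animals alone.

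**Figure D4:**
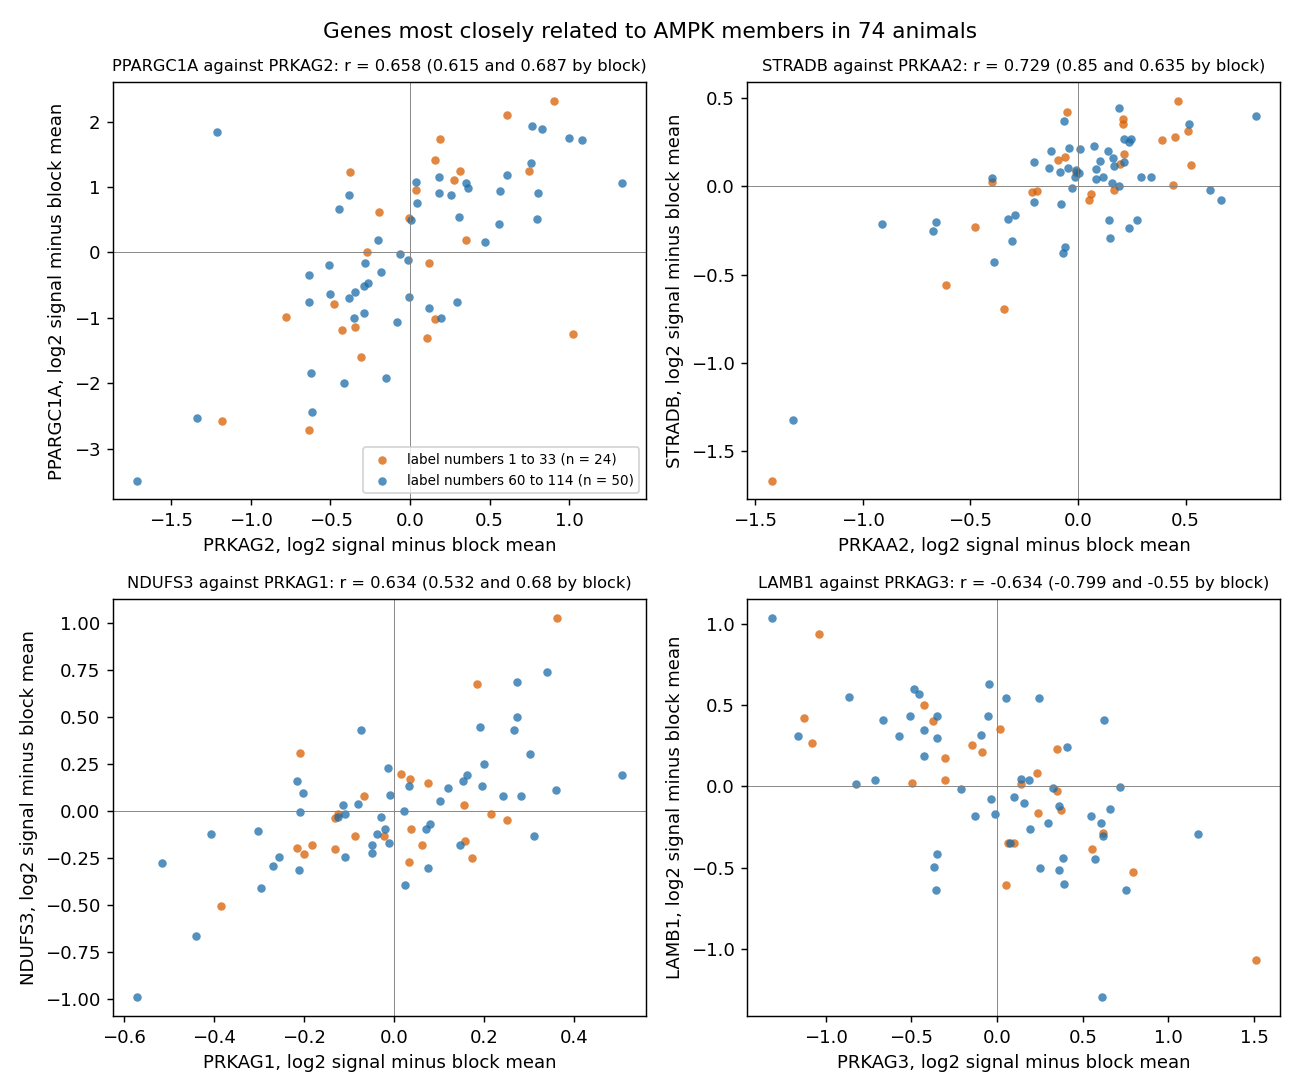
A member (horizontal axis) against its partner gene (vertical axis) in the 74 animals for PPARGC1A with PRKAG2, STRADB with PRKAA2, NDUFS3 with PRKAG1 and LAMB1 with PRKAG3, as log2 differences from the mean of the animal's label block. The first 3 relations rise (r = 0.658, 0.729 and 0.634) and that of LAMB1 falls (-0.634).

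PRKAG3, the gamma subunit of glycolytic muscle, had its highest median r, among the metabolic and fibre lists, with fast fibre and glycolytic genes, and few of its relations were still called with measures of array quality in the fit. Of the 35 named relations called, 12 were called with array brightness as a covariate and 1 with the 3' to 5' ratio of control probe sets added. PRKAG3 was called positive with 789 (6.89%) and negative with 730 (6.37%) of kept probe sets. Fast fibre genes were called 4 positive and 0 negative of 8 (median r 0.327, all 8 above 0), glycolytic genes 3 and 1 of 15 (0.257), glycogen genes 3 and 0 of 13 (0.0904), citric acid cycle genes 4 and 0 of 16 (0.107) and oxidative phosphorylation genes 9 and 0 of 59 (0.146). No slow fibre gene was called by limma, 4 had an unadjusted p under 0.05, and none of the 9 had r above 0 (median -0.174). Fatty acid oxidation genes were called 0 and 1 of 17 (-0.069), and none of the 4 genes of mitochondrial biogenesis was called by limma (1 at an unadjusted p under 0.05).

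The glycogen genes called with PRKAG3 were GYS1, the muscle glycogen synthase (r = 0.443, rho = 0.502, 0.425 and 0.468 in the low-numbered and high-numbered animals, adjusted p = 0.0057), PGM1 (0.36) and PYGM (0.351). In animal 28, with 9.33 for PRKAG3, GYS1 was 12.33 on the log2 scale, and in animal 106, with 6.95, it was 11.25, against a median of 11.72. The other GYS1 probe sets gave 0.279 and 0.256 and were not called. GYS1 was called with PRKAG1 as well, at 0.47 by the same GYS1 probe set with Ssc.4201.1.A1_at (adjusted p = 0.0012) and 0.404 with Ssc.26338.1.S1_at (adjusted p = 0.0087), where 2 and 3 of the 3 GYS1 probe sets were called. The other PYGM probe sets gave 0.336 to 0.363 with PRKAG3 and were called. Synthesis and breakdown of glycogen were thus both represented among the calls. PPP1R3A, the muscle glycogen-targeting subunit of the phosphatase, GBE1, ACACB and CAB39 were not analysed here.

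Of the 10 AMPK targets 1 was called positive and 1 negative with PRKAG3. The positive 1 was SLC2A4, the insulin-responsive transporter GLUT4 (r = 0.416, adjusted p = 0.0086), which was called with both PRKAG1 probe sets too (0.31 and 0.307), and the negative 1 was LIPE, the hormone-sensitive lipase (-0.353). With array brightness as a covariate SLC2A4 had r = 0.322 with PRKAG3 and was not called (adjusted p = 0.154). The glycolytic genes called were LDHA, the muscle form of lactate dehydrogenase (0.376), PGAM2 (0.372) and PFKM (0.358), all positive, and LDHB, the heart form of lactate dehydrogenase, which was negative (-0.472). The fast fibre genes called were ATP2A1 (0.506), the fast troponins TNNT3 (0.35) and TNNC2 (0.342) and MYH2 (0.315, adjusted p = 0.0497).

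Mitochondrial genes called with PRKAG3 belonged to the citric acid cycle and the respiratory chain. OGDH (0.483) and DLST (0.379) are both parts of the oxoglutarate dehydrogenase complex, IDH3G (0.419) is a subunit of isocitrate dehydrogenase and CS (0.342) is citrate synthase. In the respiratory chain the largest were NDUFB10 (0.441), NDUFA3 (0.37), NDUFS3 (0.367), NDUFV1 (0.354) and NDUFB11 (0.344), all of complex I, and ATP5L of the ATP synthase (0.393). ACADL, a long-chain acyl-CoA dehydrogenase, was negative (-0.435), as was PPP2CA (-0.332). PPARGC1A, the partner of PRKAG2, gave r = 0.0416 with PRKAG3 (rho = 0.0792, permutation p = 0.5, adjusted p = 0.83). The difference between the relations of PRKAG2 and PRKAG3 with PPARGC1A was not tested.

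The gene of the largest correlation with PRKAG3 was LAMB1, a laminin chain of the basement membrane (r = -0.634, rho = -0.608, -0.799 and -0.55 in the low-numbered and high-numbered animals, adjusted p = 8e-06). In animal 28 LAMB1 was 8.20 on the log2 scale and in animal 106 it was 10.51, its highest level. DSTN, an actin-depolymerising protein (-0.557), FAP, a fibroblast protease (-0.552), SDAD1 (-0.53) and PLA2G12A, a secreted phospholipase (-0.524), were next. On the positive side SLC35A4 (0.589), MAPRE3, a microtubule end-binding protein (0.564), FBXO31 (0.547) and SLC26A6, an anion exchanger (0.543), preceded SLC16A3, the lactate exporter MCT4 (0.542, 0.601 and 0.505 in the low-numbered and high-numbered animals, adjusted p = 0.00049).

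Array quality and other cells moved with PRKAG3. It correlated with array brightness before scaling at r = -0.319, with the 3' to 5' ratio of control probe sets at -0.359, with the summed adipocyte markers at -0.321, with the fibroblast markers at -0.345 and with the muscle fibre markers at 0.33. Of the markers themselves, 2 of 4 adipocyte and 2 of 5 fibroblast genes were called negative, and the part of these cells was not tested. With array brightness as a covariate 63 probe sets were called in place of 1519, and 12 of the 35 named relations, those of the 5 genes at each end, ATP2A1 and LDHB. With the 3' to 5' ratio added, 6 probe sets were called, with 1 named relation, that of LAMB1 (r = -0.59), while GYS1 had r = 0.357 (adjusted p = 0.161). Without animals 28 and 106, 183 probe sets were called, with 1 glycogen, 1 fast fibre and 0 oxidative phosphorylation genes positive.

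**Figure D5:**
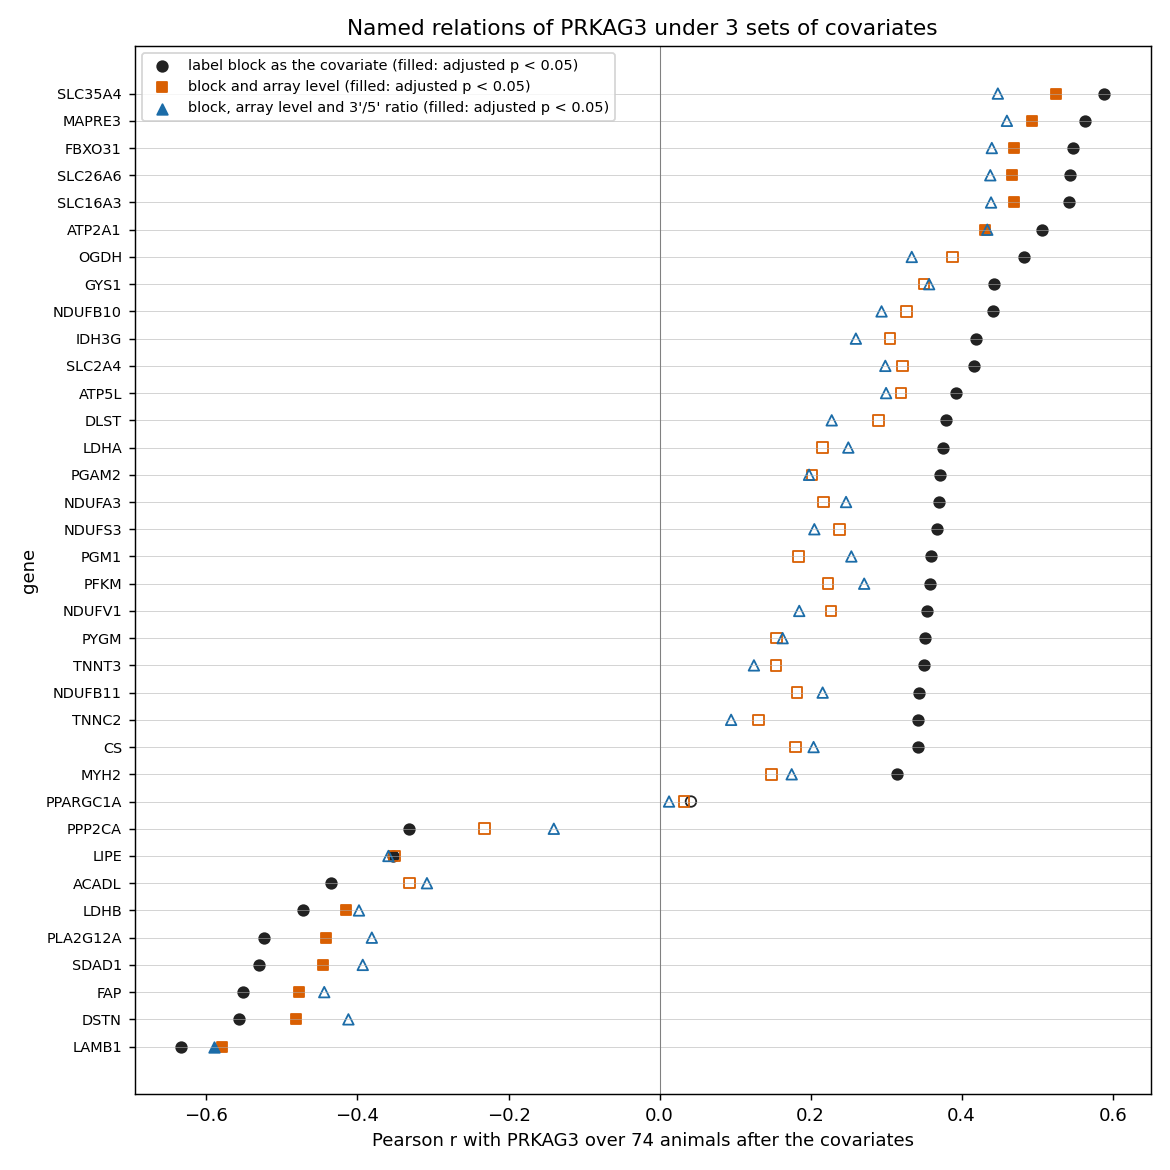
Block-centred correlation (horizontal axis) of the genes named with PRKAG3 under 3 sets of covariates, the label block alone, with array brightness, and with array brightness and the 3' to 5' ratio. Filled symbols passed an adjusted p of 0.05. The values keep their sign, 12 of 35 are still called with brightness and 1, LAMB1, with both covariates.

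STK11, the upstream kinase, had the fewest relations, 49 positive (0.428%) and 34 negative (0.297%). Of the 8 fast fibre genes 1 was called, MYOZ1 (r = 0.499, adjusted p = 0.019), and the median r of this list was 0.352. Of the 15 glycolytic genes 1 was called, PGK1 (0.462), with a median of 0.357, but only 9 of the 15 had r above 0. No gene of the other lists was called by limma, with 2 of 13 glycogen, 4 of 59 oxidative phosphorylation and 4 of 17 fatty acid oxidation genes at an unadjusted p under 0.05.

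The genes closest to STK11 were ARF1, a GTPase of vesicle traffic (r = 0.588, rho = 0.467, adjusted p = 0.0098), AUP1 (0.521), MAZ, a zinc finger factor (0.505), MYOZ1 and TRMT112 (0.483). The farthest were ING3 (-0.482), GTF3C6, of the RNA polymerase III machinery (-0.48), SPARCL1 (-0.457), TATDN1 (-0.456) and RPAP3 (-0.444). STK11 correlated with the summed muscle fibre markers at r = 0.386 and with array brightness at -0.25. None of these 10 relations was called by limma with array brightness as a covariate, by ranks or in either block alone, where 1283, 1576, 1216 (low-numbered) and 1250 (high-numbered) probe sets had an unadjusted p under 0.05, or without the arrays of animals 23 and 26.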

How the data were processed

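Total RNA of M. longissimus dorsi of 74 pigs was hybridised to 1 Affymetrix Porcine Genome Array each. Per the study's methods the authors used GCOS 1.1.1 with scaling to a target of 500, MAS5 present calls and PLIER. The deposited table holds linear intensity values, and the algorithm behind them is not stated. It has 24123 probe sets, 124 of them controls, and 34 zeros. Its arrays were not on a common level, so each was scaled to a trimmed mean of 500 (2% left out at each end), given a floor of 1 and log2 transformed, and no kept value lay at the floor. The deposited table has no present calls, so the probe sets of the highest median (at least 155.92 after scaling), as many as the study analysed, were kept. The platform annotation names 1 gene for 10069 probe sets, several genes for 198 and no gene for 13732. The number of arrays limits the precision.

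Every kept probe set was fitted with limma 3.58.1 (R 4.3.3) on a member's log2 value and the label block, with Benjamini-Hochberg adjustment over all kept probe sets except those of the member's own gene. Correlations were also tested by 100000 two-sided permutations within blocks, and r was given without the 2 animals farthest from the block-centred median. On simulated data for PRKAG3 (11452 probe sets), 17% of planted correlations of 0.3 and 84% of those of 0.5 were called. There 100 of each size were planted in noise independent between probe sets, and 11 probe sets without a planted relation were called. In the data 13.3% of probe sets were called with PRKAG3, so these rates need not hold for that fit. Named were the members, up to 5 called genes at each end of each fit, up to 6 called genes in each direction of each list for PRKAG3, and fixed genes (GYS1, PYGM, PPARGC1A), each gene by its probe set of the highest median. In the other fits list genes were added after their values were seen. Members and the lists, 11 of metabolism, signalling and fibres and 8 of cell markers, were chosen with earlier results of these data known. Alternatives were quantile normalization, values as deposited, log2 of the value plus 16, no filter, a filter of 6000 probe sets, no block term, each block alone, array brightness and the 3' to 5' ratio as covariates, ranks, mean z scores of a gene and, added after seeing the data, both covariates together and the omission of 2 arrays that stand apart. Figures used Python 3.11.15 with matplotlib 3.10.9.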

Additional observations from a re-analysis of the deposited data

Results flagged for a closer look

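The slope of a probe set on a member was compared between low-numbered and high-numbered animals by an interaction term in limma. For PRKAA2 the slopes differed at an adjusted p under 0.05 for 341 probe sets (2.98%). For PRKAG1 they differed for 1 (Ssc.4201.1.A1_at) and 3 (Ssc.26338.1.S1_at), for PRKAB1 for 1 and for PRKAG3 for 2. For PRKAB2, PRKAG2 and STK11 limma called 0, with 1028, 1468 and 669 at an unadjusted p under 0.05, and no other tool was run.

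Among the genes of the lists, 7 were called, all with PRKAA2, for which 2.98% of all kept probe sets were called. The lists they came from tested 59 oxidative phosphorylation, 15 glycolytic, 13 glycogen, 8 fast fibre and 4 smooth muscle genes. Whether list genes were called more often than all kept probe sets was not tested. PHKB had a slope steeper by 0.946 in the low-numbered animals (adjusted p = 0.021, r = 0.836 against 0.347 in the high-numbered animals), MYH2 one steeper by 0.603 (adjusted p = 0.041, r = 0.609 against 0.34), and HK1 a difference of -0.977 (adjusted p = 0.027, r = -0.868 against -0.502). For NDUFC1 of complex I the difference was 0.759 (r = 0.71 against -0.108), for COX6C of cytochrome oxidase 0.446 (0.721 against -0.197) and for ATP5E of the ATP synthase 0.359 (0.499 against -0.319). SMTN, a smooth muscle marker, had a difference of -0.74 (-0.731 against 0.145). Animal 26, which has the lowest PRKAA2 level and an array that stands apart, is 1 of the 24 low-numbered animals, and its part in these differences was not tested.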

How the results depend on the processing

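No paired analysis was possible because the animals form a single group with no shared replicate numbers. Of the 2094 repeats over 156 named relations and block differences, 1545 kept their direction and call, 520 lost the call, 1 gained it and 28 changed sign. With log2 of the value plus 16, no count or pair of members moved by over 1.5 times or lost its call.

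In the values as deposited, 4987 probe sets were called with PRKAA2 (8 glycogen genes positive), 6105 with PRKAB1 (0 oxidative phosphorylation genes negative), 7029 with PRKAB2, 8189 with PRKAG1 by Ssc.4201.1.A1_at (57 oxidative phosphorylation and 17 fatty acid oxidation genes) and 5715 by Ssc.26338.1.S1_at, 5012 with PRKAG2, 25 with PRKAG3 (0 glycogen, 0 fast fibre and 0 oxidative phosphorylation genes) and 7566 with STK11, and PRKAA2 and PRKAB1 had r = -0.1. There r changed sign for MAP3K7 with PRKAA2 (0.0729), for PDCD5 (0.0393), PAIP1 (0.0195), LSM14A (0.0134), MARK3 (0.22), PDK4 (0.026), PPP1CC (0.113), STBD1 (0.0429), PPP1CB (0.269) and UGP2 (0.177) with PRKAB1, for CD164 (0.306), TOP2B (0.297), RAD21 (0.361), TBCA (0.371), RYBP (0.0976), CAPRIN1 (0.198), KMT2E (0.0534), SUGT1 (0.182) and INSIG2 (0.158) with PRKAG1, and for ING3 (0.125), GTF3C6 (0.223), SPARCL1 (0.241), TATDN1 (0.236) and RPAP3 (0.148) with STK11. The cause was not tested.

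After quantile normalization 231 probe sets were called with PRKAG2 and 131 with STK11, 3 glycogen genes with PRKAA2, 8 oxidative phosphorylation genes negative with PRKAB1, and 1 glycogen and 1 fast fibre gene with PRKAG3, and PRKAA2 and PRKAB1 (r = -0.236) were not called. With no filter both pairs of members (0.307 and -0.31) lost their call, and the counts were 1272 for PRKAG1 (Ssc.26338.1.S1_at), 36 for PRKAG2, 962 for PRKAG3 (1 glycogen, 1 fast fibre and 4 oxidative phosphorylation genes), 14 for STK11 and 10700 between label blocks. With the stricter filter, which tests fewer probe sets, they were 2429 for PRKAB1, 142 for PRKAG2, 128 for STK11 and 3845 between blocks.

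With no block term the counts were 3600 for PRKAB2, 4223 and 3567 for PRKAG1 (16 oxidative phosphorylation genes by Ssc.4201.1.A1_at), 6153 for PRKAG2, 2792 for PRKAG3 (3 oxidative phosphorylation genes) and 10 for STK11, r was -0.186 for PRKAA2 and PRKAB1, and IDH3G (-0.00877) and NDUFB11 (-0.0527) changed sign with PRKAG3. Over the 24 low-numbered animals alone 40 probe sets were called with PRKAB1, 2 with PRKAG3 and 0 with PRKAB2, PRKAG1, PRKAG2 and STK11, with 3 glycogen genes for PRKAA2, 0 list genes for the others, pairs at 0.411 and -0.489 not called, and HADH at -0.0505 with PRKAG1. Over the 50 high-numbered animals alone the counts were 1423 for PRKAA2 (3 glycogen and 2 fast fibre genes), 2502 for PRKAB1, 846 for PRKAB2, 1840 and 837 for PRKAG1, 6 for PRKAG2 and 0 for STK11. PRKAG3 then had 1 glycogen, 1 fast fibre and 1 oxidative phosphorylation gene, the pairs (0.24 and -0.167) were not called, and PPARGC1A had r = -0.00971 with PRKAG3.

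Without the 2 animals farthest on the member the counts were 1704 for PRKAA2 (3 glycogen and 0 fast fibre genes), 945 for PRKAB2, 7 for PRKAG2, 183 for PRKAG3 (1 glycogen, 1 fast fibre and 0 oxidative phosphorylation genes) and 164 for STK11, with 22 oxidative phosphorylation genes for PRKAG1 and pairs at 0.228 and -0.194. By ranks they were 1311 for PRKAA2 (1 glycogen and 1 fast fibre gene), 4 for PRKAG2 and 0 for STK11, with 1 glycogen and 1 fast fibre gene for PRKAG3 and pairs at 0.291 and -0.234. Mean z scores per gene gave 7 fast fibre genes for PRKAG3. Without the arrays of animals 23 and 26 the counts were 1200 for PRKAG1 (Ssc.26338.1.S1_at), 197 for PRKAG2 and 1 for STK11, with 3 glycogen genes for PRKAA2, 1 glycogen and 1 fast fibre gene for PRKAG3 and pairs at 0.241 and -0.227.

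With array brightness as a covariate the counts were 481 for PRKAB2, 440 and 463 for PRKAG1 (17 oxidative phosphorylation genes), 190 for PRKAG2, 63 for PRKAG3 (0 glycogen, 1 fast fibre and 0 oxidative phosphorylation genes) and 0 for STK11, and PRKAA2 and PRKAG3 had r = 0.26. With the 3' to 5' ratio alone PRKAG3 had 955. With both the counts were 326 for PRKAB2, 422 and 441 for PRKAG1 (19 oxidative phosphorylation genes), 173 for PRKAG2, 6 for PRKAG3 (0 genes of the 3 lists) and 8 for STK11. These relations rest on 74 related animals of a single group, on brightness rather than counted molecules, and on a filter by median in place of detection calls.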
